A study of Mus musculus with 6 samples.

Results

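Pancreatic islet barcodes that held most of their RNA as insulin transcripts but showed few different genes were examined as one set. They were 500 of the 43445 barcodes of 6 single-cell RNA-Seq libraries, and will be called few-gene β cell–like barcodes. A barcode belonged to the set when it had 500 to 3000 detected genes, at least 10000 unique molecular identifiers (UMIs, each standing for a captured RNA molecule), at most 10% of UMIs on mitochondrially encoded genes, at least 25% of UMIs on *Ins1* and *Ins2* together, and under 0.5% each on *Gcg*, *Sst*, and *Ppy*. The comparison set passed the same rule with more than 3000 genes and held 4957 barcodes, called many-gene barcodes here, so that 5457 barcodes passed the part of the rule that both share. The members were chosen by measured values, the number of genes, the UMIs, and the shares of insulin, other hormone and mitochondrial UMIs, so every difference between few-gene and many-gene barcodes is given as a description, with no test.

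The islets came from C57/BL6 mice aged 12 to 14 weeks, with 3 WT and 3 β14-3-3ζ–KO libraries. In KO mice, exon 4 of *Ywhaz*, the gene of the scaffold protein 14-3-3ζ, was floxed and deleted by a Cre recombinase under the *Ins1* gene (Ins1-CreThor). Deletion was therefore meant for β cells, and the littermate controls carried the Cre without the deletion. Islets rested overnight and were dispersed, dead cells were removed with a kit, and libraries were made with the 10x 3′ assay. The labels give no statement on whether a library pooled animals, or on what a shared replicate number stands for, so p-values measure the spread between these libraries only.

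A β cell is a secretory cell that translates preproinsulin mRNA into the endoplasmic reticulum (ER), where the protein is folded, oxidised and then packed into granules. ER chaperones such as BiP, the product of *Hspa5*, bind unfolded chains, and their genes are turned up by the unfolded protein response. In a droplet assay the UMIs of a barcode come from the RNA of its cell plus free RNA of the suspension.

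The few-gene barcodes carried β cell transcripts beyond the insulin used to choose them. Over UMIs other than *Ins1* and *Ins2*, *Iapp*, which encodes the co-secreted peptide amylin, stood at 82480, 65228 and 74562 CPM (counts scaled to the same total in each library) in WT libraries 1 to 3 and at 78166, 75980 and 68834 CPM in KO libraries 1 to 3. Many-gene barcodes ran from 59715 to 68570 CPM, so the ranges overlapped, and few-gene barcodes were higher in 6 of 6 libraries. Per barcode, *Iapp* had a mean of 562 UMIs against 1344, higher in few-gene barcodes in 0 of 6 libraries. *Ucn3*, a peptide of mature β cells, had a mean of 263 CPM against 276 CPM, and *Slc2a2*, the glucose transporter, 359 against 290 CPM. *Mafa* and *Pdx1*, of the same β cell marker list, were lower in few-gene barcodes, with values given further below. Level in these sentences means the summed UMIs of a gene over the barcodes of a library, in CPM of the UMIs of all genes but the 2 insulin genes, and values are means of 6 libraries unless a library is named. On the same scale the summed α cell markers were 4390 to 6067 CPM in few-gene and 2898 to 3933 CPM in many-gene barcodes, with *Gcg* itself at 2199 and 1136 CPM. PP cell markers summed to 633 to 3313 CPM against 552 to 1519 CPM and δ cell markers to 219 to 738 CPM against 193 to 371 CPM, both higher in few-gene barcodes in 6 of 6 libraries, and ductal markers to 526 to 697 CPM against 845 to 1121 CPM. In CPM of all UMIs, the few-gene sums were higher in 2 of 6 libraries for α cell markers. They were higher in 1 of 6 for PP cell markers and in 1 of 6 for δ cell markers. The α cell list includes *Ttr*, at 2172 CPM of non-insulin UMIs in few-gene and 480 in many-gene barcodes. The rule limits *Gcg*, *Sst* and *Ppy*, 1 marker of each of the 3 hormone lists. The 9 stellate markers summed to 0 to 9.89 CPM against 5.71 to 46.9 CPM, the 8 endothelial markers to 21.4 to 48.4 CPM against 30.5 to 107 CPM, and the 9 macrophage markers to 69.9 to 141 CPM against 67.1 to 138 CPM. B cell markers reached 582 and 1631 CPM and acinar markers 200 and 1519 CPM in the library where each was highest. Free RNA was not subtracted and no doublet caller was run, and their part in these values was not tested.

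WT libraries 1 to 3 held 117, 72 and 80 few-gene barcodes, and KO libraries 1 to 3 held 110, 81 and 40. The summed depth behind every level below was 953813 to 4706000 UMIs per library, out of 74083947 to 98294915 UMIs per library over all barcodes. Only 3 of the 500 barcode sequences (0.600%) also occurred in another library, where 474 of all 43445 (1.09%) did. KO library 2 stood apart: it was the shallowest per barcode, and after thinning to 2000 UMIs of genes other than insulin 30.9% of its few-gene barcodes lay above the lowest 5% of its many-gene barcodes in gene number, against 2.50% to 12.0% in the other 5 libraries. After thinning to 10000 UMIs of all genes, the share was 33.3% in KO library 2, 24.8% in WT library 1 and 5% to 8.33% in the other 4. Counts between the sets, and list counts between genotypes, are therefore also given without KO library 2 where they changed.

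**Figure D1:**
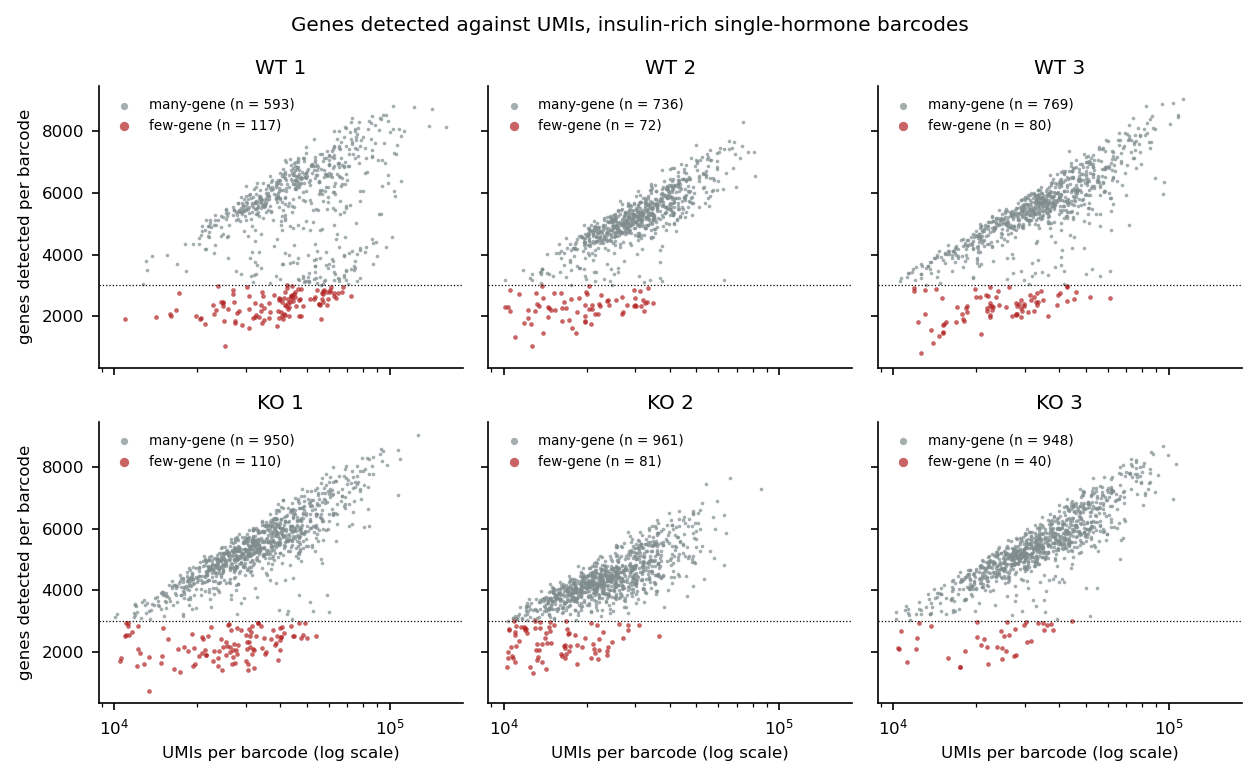
Genes detected per barcode (vertical axis) against UMIs per barcode (horizontal axis, log scale) for barcodes of each of the 6 libraries, with few-gene barcodes in red, many-gene barcodes in grey and the 3000-gene limit dotted. The red points form a band to the right of the grey slope, with medians of 14747 to 41087 UMIs, and in KO library 2 part of them continue the lower end of the slope.

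Genes and UMIs per barcode, both used by the rule, are given first. Their median was 41087, 19709 and 23273 UMIs in WT libraries 1 to 3 and 26814, 14747 and 24671 UMIs in KO libraries 1 to 3, or 0.622 to 0.875 of the median of many-gene barcodes of the same library. The median number of genes was 2230 to 2438 against 4304 to 5869. Genes per 1000 UMIs were 58.9 to 149 in few-gene and 127 to 183 in many-gene barcodes, lower in few-gene barcodes in 6 of 6 libraries.

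The lower total lay in genes other than insulin. Insulin UMIs per few-gene barcode had medians of 31715, 12962 and 15878 in WT and 19241, 8980 and 17309 in KO libraries, above those of many-gene barcodes (19655, 12519 and 13479 in WT, 12648, 10026 and 13505 in KO) in 5 of 6 libraries and below in KO library 2. UMIs of all other genes had medians of 10152, 6540 and 7496 in WT and 7112, 6262 and 7100 in KO libraries. In many-gene barcodes they were 13320 to 24775, so few-gene barcodes held 0.355 to 0.470 of that number. The share of insulin was 76.0%, 68.1% and 69.5% in WT and 72.0%, 62.3% and 70.2% in KO libraries, against 38.3% to 41.7% in many-gene barcodes. Within the insulin UMIs, the part of *Ins1*, the rodent-specific copy, differed little between the sets: it was 14.6% to 27.5% in few-gene and 15.5% to 28.0% in many-gene barcodes, lower in few-gene barcodes in 3 of 6 libraries.

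**Figure D2:**
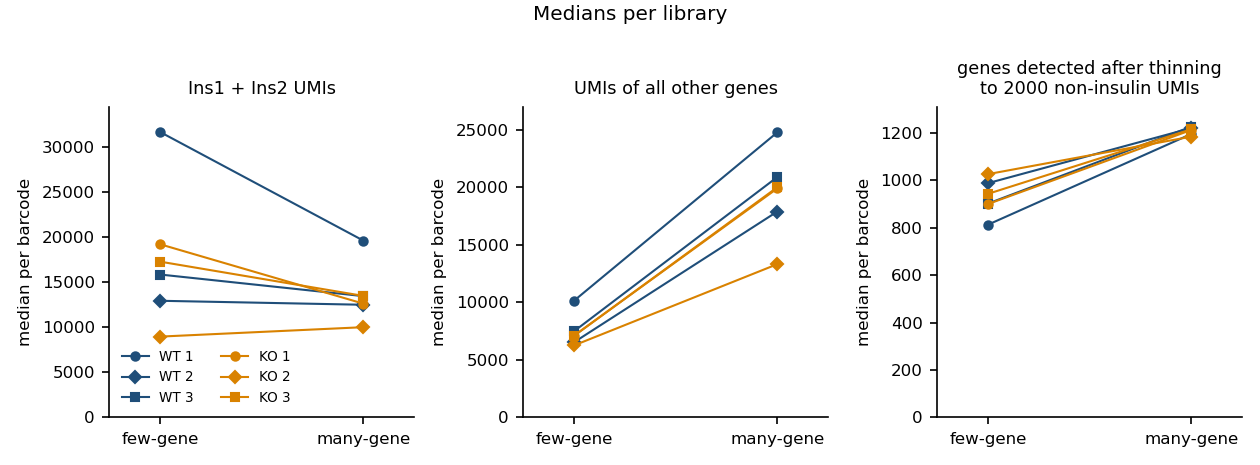
Medians per barcode in few-gene and many-gene barcodes, each line joining the 2 sets of 1 library, for *Ins1* plus *Ins2* UMIs, for UMIs of all other genes, and for genes detected after thinning every barcode to 2000 UMIs of other genes. Insulin UMIs are higher in few-gene barcodes in 5 of 6 libraries, while other UMIs and thinned genes are lower in 6 of 6.

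The gene number was also lower at an equal number of molecules. When each barcode was thinned to 2000 UMIs of genes other than insulin, which every barcode had, few-gene barcodes still showed medians of 813, 988 and 902 genes in WT and 900, 1026 and 943 genes in KO libraries. Many-gene barcodes showed 1184 to 1226. Thinned to 10000 UMIs of all genes instead, the medians were 889 to 1661 against 2606 to 2795. A few abundant RNAs took larger shares. Ribosomal protein mRNAs took 19.5%, 14.8% and 17.3% of non-insulin UMIs in WT and 17.6%, 13.2% and 16.4% in KO libraries, where they took 8.47% to 10.1% in many-gene barcodes. Mitochondrially encoded mRNAs, often raised in damaged cells, took 2.13% to 3.22% of all UMIs against 4.51% to 4.89%, and 8.12% to 9.40% of non-insulin UMIs against 7.66% to 8.60%. *Malat1*, a nuclear long noncoding RNA, had a mean of 33219 against 19144 CPM of non-insulin UMIs and was higher in 6 of 6 libraries. Per barcode it had a mean of 253 UMIs against 410, higher in few-gene barcodes in 0 of 6 libraries.

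Few-gene barcodes were not uniform. With all libraries joined, the 20 barcodes with up to 1500 genes had a median of 4260 non-insulin UMIs, the next 95 with up to 2000 genes 5611, the next 194 with up to 2500 genes 7148, and the last 191 with up to 3000 genes 9170. Ribosomal protein mRNAs took 24.1%, 19.4%, 17.1% and 14.9% of non-insulin UMIs in the same 4 groups, lower at each step in 5 of 6 libraries. Genes seen at 2000 non-insulin UMIs went from 774.5 to 965, higher at each step in 6 of 6. The first group held 1 to 6 barcodes per library. Within a library, the insulin share of few-gene barcodes went with their UMIs (Spearman's rho 0.60 to 0.76) and with the ribosomal protein share (0.39 to 0.57), where the same library depth and the same total lie behind both measures.

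The limit of 3000 genes did not fall in a gap. All libraries were joined for this. The 36 barcodes with 2901 to 3000 genes had medians of 28220 UMIs and 65.3% insulin, and the 29 barcodes with 3001 to 3100 genes had 15190 UMIs and 49.4%. *Hspa5* was at 3998 CPM of non-insulin UMIs just inside and at 6341 CPM just outside, and *Cox6a2* at 356 and 243 CPM. *Dnah12* was at 34.1 and 3.68 CPM. Both sides thus lay above the *Hspa5* level of the many-gene sets of all 6 libraries, and *Dnah12* was near that of many-gene barcodes just outside. Libraries were not matched between the sides, so their mix enters these values.

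Single genes were set against 2 totals, since the insulin share differed so much between the sets. In CPM of all UMIs, 5064 genes reached a mean of 20 CPM, and the median gene had a log2 ratio of few-gene to many-gene barcodes of -1.47. At least 2-fold in the same direction in all 6 libraries, 2 of the 5064 genes were higher (0.0395%) and 1393 lower (27.5%). In CPM of UMIs other than insulin, 7235 genes reached 20 CPM, the median log2 ratio was -0.65, and 36 genes were higher (0.498%) and 87 lower (1.2%). With no limit of size, 7.33% of the 7235 genes were higher and 56.4% lower in all 6 libraries. Without KO library 2 the second scale gave 63 higher and 513 lower genes of 7278, and the first 2977 lower genes of 5134. Without WT library 2, 177 of 7233 genes were lower on the second scale, and with the limit between the sets at 3500 genes, 46 of 5111 were lower on the first. A ratio near 0 on the second scale is thus above that of the median gene, and each ratio below is on the second scale unless the first is named, with its SD over 6 libraries.

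*Ins1* (chr19:52264297-52265476) and *Ins2* (chr7:142678656-142743381, both in GRCm38), used by the rule, had log2 ratios of 0.70 and 0.70 in CPM of all UMIs. The other markers that came with the set differed in size. *Hspa5* (chr2:34771970-34777547) stood at 7228, 5468 and 7330 CPM in WT and at 5125, 2638 and 4863 CPM in KO few-gene barcodes, and at 1065 to 2742 CPM in many-gene barcodes. Every few-gene value but that of KO library 2 lay above every many-gene value, for a log2 ratio of 1.65 ± 0.26 (SD, n = 6), which was 0.73 in CPM of all UMIs. Per barcode this came to a mean of 42.2 *Hspa5* UMIs against 37.9, so the molecule number itself was close in the 2 sets.

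*Dnah12* (chr14:26693274-26891703), which encodes an axonemal dynein heavy chain, a motor of cilia, had the highest ratio of the given markers. It stood at 113, 79.2 and 106 CPM in WT and 65.0, 21.8 and 69.7 CPM in KO few-gene barcodes, and at 0.433 to 4.95 CPM in many-gene barcodes, with no overlap and a log2 ratio of 4.85 ± 0.61. It was also higher in CPM of all UMIs (3.57). At 10000 UMIs per barcode, 18.8%, 20.8% and 21.3% of WT and 17.3%, 4.94% and 20% of KO few-gene barcodes held a *Dnah12* UMI, against 0.104% to 1.52% of many-gene barcodes. The other axonemal and ciliary genes did not share this: of 7 such genes at 20 CPM, *Dnah12* alone was 2-fold higher in all 6 libraries. The median of the list was -0.36, with 6 of the 7 above the median of all genes.

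*Cox6a2* (chr7:128205435-128206387), a subunit of cytochrome c oxidase found mostly in heart and skeletal muscle, stood at 262, 409 and 221 CPM in WT and 442, 192 and 292 CPM in KO few-gene barcodes against 61.4 to 91.3 CPM, a log2 ratio of 1.90 ± 0.49. Of 79 nuclear-encoded subunits of oxidative phosphorylation it was the only one 2-fold higher in all 6 libraries, where 0.498% of all genes were. The list had a median of -0.06, with 70 of the 79 above the median of all genes. *Dnajb9*, an ER cochaperone of BiP, stood at 653, 764 and 1014 CPM in WT and 639, 285 and 614 CPM in KO few-gene barcodes against 284 to 470 CPM. Its log2 ratio of 0.86 ± 0.53 was -0.06 in CPM of all UMIs, higher in 3 of 6 libraries on that scale, and in KO library 2 the 2 sets hardly differed. Per barcode, *Dnajb9* had a mean of 5.04 UMIs against 7.48, higher in few-gene barcodes in 0 of 6 libraries. *Cox6a2* had 2.26 against 1.66, higher in 5 of 6.

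**Figure D3:**
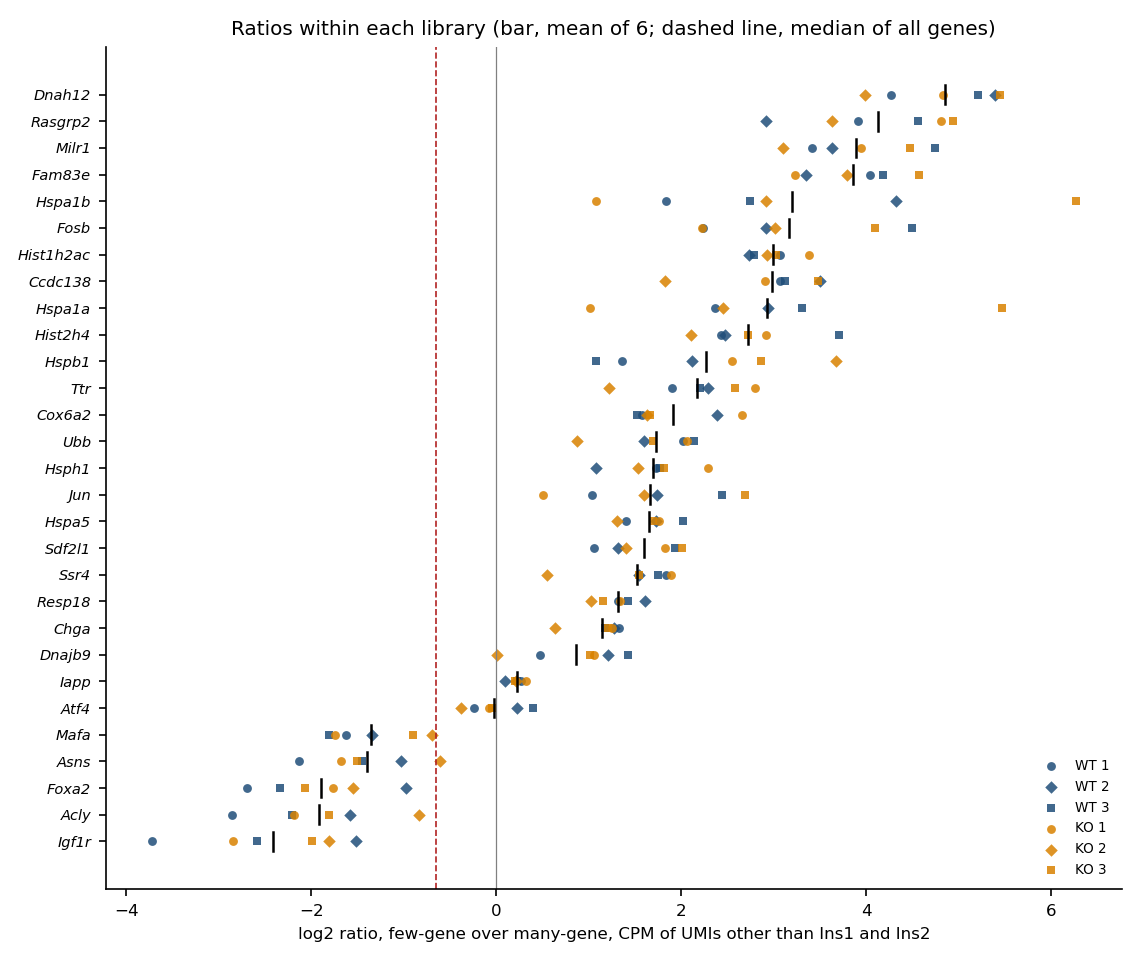
Log2 ratio of few-gene to many-gene barcodes within each library, in CPM of UMIs other than *Ins1* and *Ins2*, for named genes, with the mean of 6 libraries as a bar and the median of all genes (-0.65) as a dashed line. *Dnah12* lies highest with a mean of 4.85, *Igf1r* lowest with -2.41, and *Hspa1a* and *Hspa1b* spread widely, with KO library 3 highest.

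Genes of ER folding were described as a list of 23 chaperones and folding enzymes, of which 22 reached 20 CPM. Of these, 2 were 2-fold higher in all 6 libraries, where 0.498% of all genes were, and 0 were lower. The median log2 ratio was 0.31, with 21 of 22 above the median of all genes. Without KO library 2 the count of higher members was 3, beside 63 of all 7278 genes. Beside *Hspa5* the other was *Sdf2l1*, an ER protein that works with BiP and its cochaperones, at a mean of 346 against 115 CPM (1.59 ± 0.39). *Hsp90b1*, the ER form of Hsp90, had 2075 against 1161 CPM (0.84), *Pdia6* 602 against 330 CPM (0.86), and *Calr* 842 against 681 CPM (0.30). *Pdia4*, another disulfide isomerase, was at 117 against 156 CPM (-0.41), lower in 6 of 6 libraries. In CPM of all UMIs the median of the list was -0.62 and no member was 2-fold higher, while *Hspa5* (0.73) and *Sdf2l1* (0.67) stayed above 0 on that scale. A place above the median of all genes was not particular to this list. On the scale without insulin it also held for 70 of 79 nuclear-encoded subunits of oxidative phosphorylation, 33 of 41 splicing genes and 29 of 34 ubiquitin and proteasome genes.

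Genes of the other stress pathways did not share a direction. The integrated stress response lowers translation and turns on amino acid and redox genes through ATF4. Its 25 genes had a median of -1.34, and 3 of them, *Chac1*, *Eif4ebp1* and *Aldh1l2*, were 2-fold lower in all 6 libraries. Of all genes 1.2% were. Without KO library 2, 8 of the 25 were lower, beside 513 of all 7278 genes. *Chac1*, a glutathione-degrading enzyme, was at 19.7 against 73.6 CPM (-1.92) and *Asns*, asparagine synthetase, at 101 against 262 CPM (-1.40). *Atf4* itself was nearly level, at 417 against 416 CPM (-0.02 ± 0.29). In the same list *Ddit3*, which encodes the stress factor CHOP, had 345 against 204 CPM (0.68) and *Ppp1r15a*, which reverses the translation block, 212 against 85.4 CPM (1.29), both higher in 6 of 6 libraries. The 20 genes of ER-associated degradation and of the stress sensors had a median of -0.38, with 14 of them above the median of all genes. Among them *Selenok* had 943 against 388 CPM (1.26), while *Ern1*, the gene of the sensor IRE1α, had 49.6 against 110 CPM (-1.14).

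Of 15 cytosolic heat shock genes, 4 were 2-fold higher in all 6 libraries, with and without KO library 2 (0.498% of all genes were, in 6 libraries), and the list median was 0.62. All but *Hsph1* of the 4 were under 20 CPM in many-gene barcodes, so they reached the level limit through the few-gene set alone. *Hspa1b* stood at 24.7, 68.5 and 56.5 CPM in WT and at 18.4, 27.7 and 332 CPM in KO few-gene barcodes, against 2.47 to 8.20 CPM. *Hspa1a* stood at 35.3, 45.0 and 88.8 CPM in WT and at 20.9, 17.8 and 246 CPM in KO, against 2.45 to 9.86 CPM. Both encode the inducible Hsp70 and are near-identical, so how reads were divided between them is uncertain, and KO library 3 decided the size of both (log2 ratios of 3.19 ± 1.86 and 2.92 ± 1.47). *Hsph1*, an Hsp110 cochaperone, was at 315 against 93.3 CPM (1.70), *Hspb1*, a small heat shock protein, at 46.0 against 7.63 CPM (2.27). In CPM of all UMIs the median of the list was -0.34 and 0 of 12 genes were 2-fold higher. The summed list was higher in few-gene barcodes in 0 of 6 libraries on that scale. Per barcode, *Hsph1* had a mean of 2.43 UMIs against 2.01 and *Hspa1b* 0.655 against 0.113, each higher in few-gene barcodes in 5 of 6 libraries. *Ubb*, a polyubiquitin gene, was at 3297 against 941 CPM (1.73).

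The bases before the start of 4 of these genes are shown because their products head the ER and heat shock lists. Each line gives the 250 bases 5′ of the start in RefSeq, GRCm38.p6, and capitals mark the ER stress element, searched on both strands as CCAAT and CCACG with 9 bases of any kind between them. *Hspa5* is at chr2:34771840-34772089 on the plus strand, *Sdf2l1* at chr16:17132384-17132633, *Hspa1a* at chr17:34972157-34972406, and *Hspa1b* at chr17:34959239-34959488, all 3 on the minus strand.
Hspa5: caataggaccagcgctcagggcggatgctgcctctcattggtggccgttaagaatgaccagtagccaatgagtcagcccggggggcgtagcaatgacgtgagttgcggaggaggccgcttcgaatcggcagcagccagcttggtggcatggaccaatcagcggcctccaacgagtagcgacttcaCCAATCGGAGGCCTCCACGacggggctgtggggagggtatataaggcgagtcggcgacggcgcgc
Sdf2l1: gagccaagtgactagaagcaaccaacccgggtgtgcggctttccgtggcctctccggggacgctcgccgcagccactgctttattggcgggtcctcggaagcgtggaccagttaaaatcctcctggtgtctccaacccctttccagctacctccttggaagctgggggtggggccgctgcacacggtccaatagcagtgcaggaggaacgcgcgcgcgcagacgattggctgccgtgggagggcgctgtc
Hspa1a: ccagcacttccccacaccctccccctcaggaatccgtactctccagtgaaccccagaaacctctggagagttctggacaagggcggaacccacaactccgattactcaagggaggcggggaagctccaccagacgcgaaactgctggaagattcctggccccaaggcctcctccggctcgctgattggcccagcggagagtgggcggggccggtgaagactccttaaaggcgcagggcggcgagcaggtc
Hspa1b: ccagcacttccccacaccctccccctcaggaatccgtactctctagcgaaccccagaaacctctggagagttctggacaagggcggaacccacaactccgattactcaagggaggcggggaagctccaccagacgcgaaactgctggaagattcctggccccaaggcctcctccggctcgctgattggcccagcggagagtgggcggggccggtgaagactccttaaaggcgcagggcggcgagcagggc

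In the window of 300 bases around each start, the ER stress element was found in 39 of 32851 promoter windows (0.119%), and in 1 of the 6 ER and heat shock genes that were 2-fold higher in all 6 libraries. That was *Hspa5*, with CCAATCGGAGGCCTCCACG at bases 186 to 204 of the window. The heat shock element, searched on both strands as GAA, TTC and GAA with 2 bases of any kind between each, was in 198 of the windows (0.603%) and in *Hsph1* among the 6 genes. The 2 Hsp70 genes have the same base at 247 of the 250 positions shown. The letters looked for are exact strings, and a gene with no match has only no such string in this window.

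**Figure D4:**
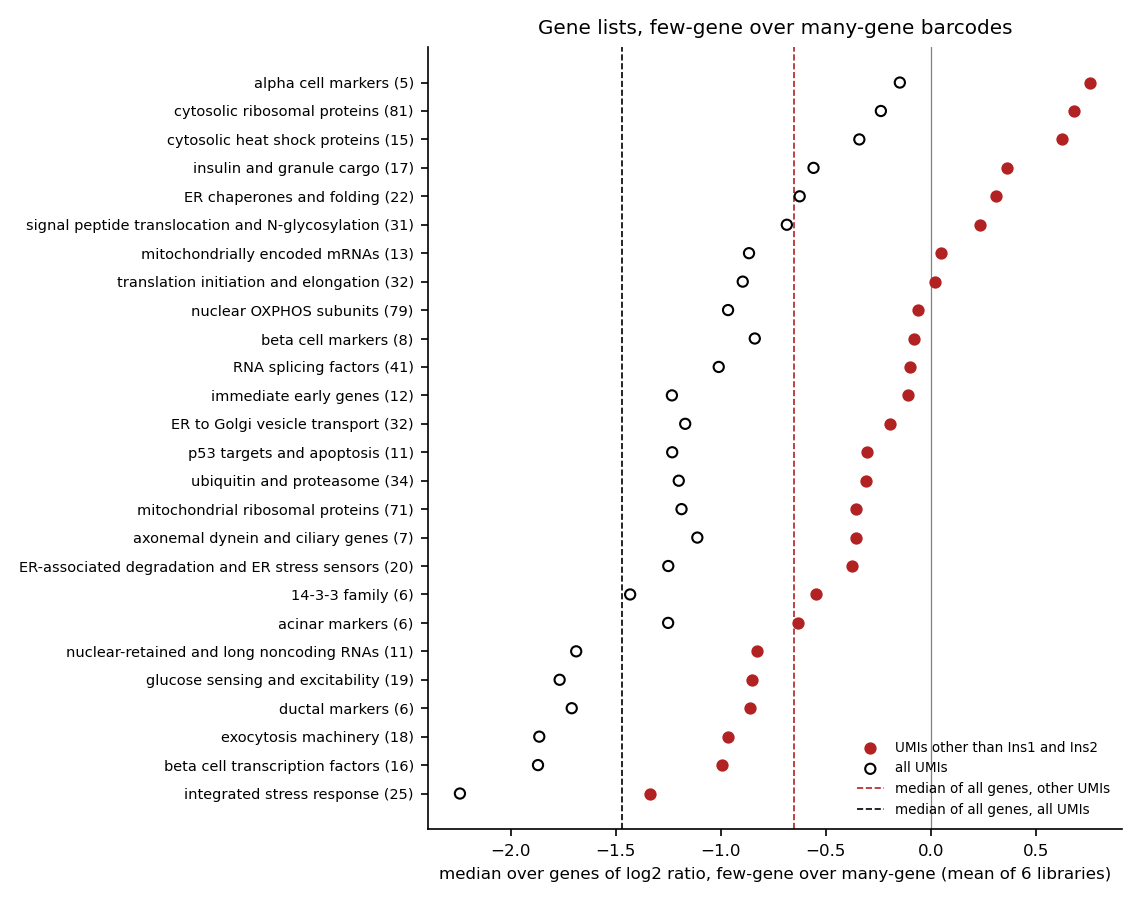
Median log2 ratio of few-gene to many-gene barcodes for the genes of each list (number of genes in brackets), in CPM of UMIs other than insulin (filled) and of all UMIs (open), with dashed lines at the medians of all genes. Ribosomal proteins, heat shock genes, granule cargo and ER chaperones lie to the right, and β cell transcription factors and the integrated stress response to the left.

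Genes of the secretory product stood above the typical gene, as did those of several other lists. The 17 genes of granule cargo at 20 CPM had a median of 0.36, with 15 of them above the median of all genes. In all 6 libraries 0 were past 2-fold, and without KO library 2, 2 were higher past it, beside 63 of all 7278 genes. *Chga*, a granin of the granule core, was at 14981 against 6650 CPM (1.14), *Scg5*, the chaperone of prohormone convertase 2, at 1873 against 811 CPM (1.17), and *Cpe*, the carboxypeptidase that trims proinsulin, at 3277 against 2556 CPM (0.34). *Pcsk1* and *Pcsk2*, which cut proinsulin, had log2 ratios of -0.04 and -0.13. *Resp18*, a granule protein gene outside this list, was at 2541 against 1021 CPM (1.31 ± 0.20) and was 2-fold higher in all 6 libraries. Per barcode it had a mean of 19.4 UMIs against 21.8, higher in few-gene barcodes in 1 of 6 libraries. Genes that bring proteins into the ER had a median of 0.23 over 31 members, with *Ssr4*, a translocon subunit, at 1479 against 493 CPM (1.52). All 81 cytosolic ribosomal protein genes were above the median of all genes, with a median of 0.68, and 0 of the 81 were 2-fold higher in all 6 libraries, also without KO library 2.

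Genes of β cell transcription factors stood below the typical gene, and the β cell markers above it. The 8 β cell markers at 20 CPM on this scale had a median of -0.08, with 6 of them above the median of all genes. The 16 β cell transcription factor genes had a median of -0.99 and 0 of them were 2-fold lower in all 6 libraries. Without KO library 2, 1 of 15 was, beside 513 of all 7278 genes. In CPM of all UMIs, 15 of the genes reached 20 CPM, with a median of -1.87 and 7 of them 2-fold lower. On that scale the median of all genes was -1.47, and 27.5% of all genes were 2-fold lower. *Mafa*, an activator of the insulin genes, stood at 224, 501 and 324 CPM in WT and 277, 873 and 511 CPM in KO few-gene barcodes against 694 to 1419 CPM (-1.36 ± 0.46). *Foxa2* was at 34.7 against 121 CPM (-1.90), *Pdx1* at 87.2 against 181 CPM (-1.23), and *Nkx6-1* at 309 against 319 CPM (-0.06). The exocytosis genes (18, median -0.97) and those of glucose sensing and excitability (19, median -0.85) lay below the median of all genes as well. In the second list *Glp1r*, the incretin receptor, was at 476 against 881 CPM (-0.97) and *G6pc2*, the islet glucose-6-phosphatase, at 709 against 761 CPM (-0.13). *Trpm5*, a cation channel of β cells, went the other way, at 289 against 117 CPM (1.29).

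Among the genes 2-fold lower in all 6 libraries was *Igf1r*, the receptor of insulin-like growth factor 1, at 55.7, 321 and 126 CPM in WT and 128, 206 and 202 CPM in KO few-gene barcodes against 725 to 927 CPM (-2.41 ± 0.81). *Stat3*, a cytokine-activated transcription factor, was at 68.3 against 261 CPM (-2.05). *Acly*, which makes acetyl-CoA for lipid synthesis, was at 511 against 1683 CPM (-1.91) and passed 2-fold in all 6 libraries in CPM of all UMIs only. Per barcode, *Igf1r* had a mean of 1.23 UMIs against 17.2 and *Acly* 3.58 against 34.8. Both thus differed more in molecules per barcode than the non-insulin total did. Of the 14-3-3 genes, *Ywhaq* was at 392 against 389 CPM (0.01) and *Ywhag* at 47.4 against 137 CPM (-1.55).

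The 36 genes higher in all 6 libraries held several that are hardly read in many-gene barcodes, with the count of UMIs small there. *Ttr*, a thyroid hormone carrier that islet cells make, was the most abundant after *Hspa5* and *Resp18*, at 2172 against 480 CPM (2.16 ± 0.56). *Ttr* is a member of the α cell marker list. *Fosb*, an immediate early transcription factor, was at 49.6 against 5.74 CPM (3.16), and *Jun* at 299 against 92.6 CPM (1.67) without passing 2-fold in all libraries. *Hist2h4* (2.72) belongs to a family of near-identical histone genes and is uncertain. Of the 36 genes, 27 were under 20 CPM in many-gene barcodes and reached the level limit through the few-gene set alone. In 10 of these 27 (37.0%), a gene with at least 50 CPM in few-gene barcodes lay upstream on the same strand within 30000 bases, where 24 of the 133 placed genes that reached 20 CPM in few-gene barcodes alone had such a neighbour, the 27 included. Nothing is tested by these shares. *Tmem88* lies 274 bases after *Kdm6b*, *Fam83e* 376 bases after *Rpl18*, *Lsmem1* 2077 bases after *Ifrd1*, *Ccdc138* 3592 bases after *Ranbp2*, and *Brip1* 9488 bases after *Ints2*. *Dnah12* lies 28190 bases after *Arf4*. This count was chosen after the values were seen, and the strand setting of the counting is not given in the sources used here.

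KO and WT few-gene barcodes were then compared over libraries, a contrast the rule did not use. Of insulin-rich barcodes, the few-gene share was 16.5% (95% Wilson interval 13.9 to 19.4), 8.91% (7.14 to 11.1) and 9.42% (7.64 to 11.6) in WT libraries 1 to 3 and 10.4% (8.68 to 12.4), 7.77% (6.30 to 9.56) and 4.05% (2.99 to 5.47) in KO libraries 1 to 3, intervals that cover counting error only. KO was lower than WT of the same number in 3 of 3 pairs, and the groups overlapped, with means of 11.6% ± 4.23 and 7.40% ± 3.18 (SD, n = 3 each). The difference of -4.20 percentage points gave p = 0.3 in a 2-sided exact permutation test, which cannot go below 0.1, and p = 0.25 in the exact test over the 3 pairs, the smallest it can give. Without WT library 1 the difference was -1.77. The medians of UMIs, genes, insulin share and mitochondrial share, all limited by the rule, overlapped between genotypes and were not read as a test.

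*Ywhaz* (chr15:36770770-36796929), the targeted gene, was lower in KO few-gene barcodes. Counts were summed per library and scaled by TMM (trimmed mean of M values), which weighs insulin less than CPM does. *Ywhaz* stood at 27.3, 50.7 and 42.1 TMM-scaled CPM in WT and 8.57, 14.8 and 11.9 in KO, with no overlap and lower KO values in 3 of 3 pairs. The log2 fold change was -1.77 ± 0.293 (SE), with an adjusted p of 0.170 in edgeR's quasi-likelihood test over 5163 genes, and from 2.72e-07 to 0.966 over the alternatives. With the replicate number as a block it was -1.75 ± 0.218 (adjusted p 7.95e-07), and without WT library 1 the unblocked adjusted p was 0.00795. In many-gene barcodes of the same libraries the log2 fold change was -3.01 (adjusted p 7.24e-07). The term for the difference between the sets was 1.26 in limma-voom with an unadjusted p of 0.00135 and an adjusted p of 0.804. The 3′ assay does not read exon 4, so these counts show how much *Ywhaz* mRNA was left and not the deletion itself, and 18 of 110, 20 of 81 and 9 of 40 KO few-gene barcodes held a *Ywhaz* UMI at full depth.

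Across all genes, edgeR's quasi-likelihood test called 0 of 5163 genes (0%) between KO and WT few-gene barcodes at an adjusted p under 0.05 and a log2 fold change above 0.1 in size, with 293 genes at an unadjusted p under 0.05 (5.67%). DESeq2 called 2, *Ywhaz* and *Gm10076*. *Gm10076* is a copy related to a ribosomal protein gene, at 171, 164 and 163 scaled CPM in WT and 81.8, 43.2 and 79.1 in KO (log2 -1.29, edgeR adjusted p 0.242), and is uncertain because of its parent gene. In 560 genes (10.8%) the groups did not overlap, 270 of them lower in KO (5.23% of all tested). The genotype by set term was called for 0 genes, with 301 at an unadjusted p under 0.05 (5.83%), and with the block for 0 as well. After *Ywhaz* and *Gm10076*, the lowest p values between genotypes were those of *Ints2* (log2 -1.22), *Plcxd2* (-1.35) and *Ppp1r10* (-0.90), each with no overlap and called with the block. The lowest p of the genotype by set term, 0.000273 (adjusted p 0.804, limma-voom), was that of *Lztfl1*, at 32.8 to 33.2 scaled CPM in the WT and at most 21.8 in the KO few-gene barcodes. Deviations of same-numbered libraries from their group means correlated at 0.68, 0.57 and 0.17 for numbers 1 to 3. With that number as a block edgeR called 65 genes (1.26%), 20 higher (0.387%) and 45 lower (0.872%) in KO. The block was taken from these same data, and the labels do not say what the number marks. Blocked p values below are to be read with that limit, beside the 0 genes of the unblocked test. Without the libraries numbered 1 the blocked count was 34, without those numbered 2 it was 57, and without those numbered 3 it was 54. Of these 24, 32 and 36 were among the 65, and all 65 kept their direction each time. The refits reuse libraries by which the 65 were chosen, so the kept direction is not separate evidence for them.

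The genes called with the block included markers of the set. *Hspa5* stood at 2656, 1541 and 2331 scaled CPM in WT and 1627, 730 and 1450 in KO and fell by 0.82 on the log2 scale (blocked adjusted p 0.00522, unblocked 0.774, edgeR). *Dnajb9* fell by 0.80 (blocked adjusted p 0.00431) and *Dnah12* by 1.10 (0.00431), each with an unblocked adjusted p of 0.774. KO was lower in 3 of 3 pairs for all 3 genes, and the groups overlapped for *Hspa5* and not for the other 2. In many-gene barcodes, KO was also lower for them in UMIs per barcode, which are not scaled for depth. *Hspa5* had 73.9, 31.9 and 40.7 in WT and 32.6, 15.4 and 32.9 in KO. *Dnajb9* had 12.7, 6.36 and 8.53 in WT and 6.64, 4.10 and 6.61 in KO. *Dnah12* had 0.133, 0.0177 and 0.0429 in WT and 0.0284, 0.00624 and 0.0137 in KO. The genotype by set term was called for 0 genes. *Cox6a2* was not called (blocked log2 -0.04, adjusted p 0.943), and *Sdf2l1* had a blocked log2 of -0.38 with an adjusted p of 0.232. The lowest KO value was that of KO library 2 for *Hspa5*, *Dnajb9* and *Dnah12*, and without it their unblocked log2 fold changes stayed below 0, since leaving out any 1 library gave -1.02 to -0.52, -1.02 to -0.44 and -1.48 to -0.70.

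Other calls with the block were scattered over the lists. *Ubb* fell by 0.82 (blocked adjusted p 0.00373), the 1 called of 34 ubiquitin and proteasome genes, of which 25 had values above 0. *Herpud1*, an ER-associated degradation gene, fell by 0.69 (blocked adjusted p 0.0111), *Ddit3* by 0.67 (0.0228), *Ppp1r15a* by 0.65 (0.0326), *Jun* by 0.70 (0.0238), and the amino acid transporter gene *Slc38a2* by 0.89 (0.000548), all in edgeR. *Rpl35* fell by 0.92 (0.000527) and was 1 of 2 called among 81 ribosomal protein genes, where 0.872% of all genes were called lower. Among genes higher in KO, *Gch1*, which starts the synthesis of tetrahydrobiopterin, had a log2 fold change of 0.96 (0.000988), *Txnip*, a glucose-induced inhibitor of thioredoxin, 0.76 (0.0393), *Ndufa4*, a respiratory chain subunit, 0.83 (0.00431), and *Acly* 0.62 (0.0228). Over the alternatives, adjusted p values of these genes reached 1 at the highest.

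**Figure D5:**
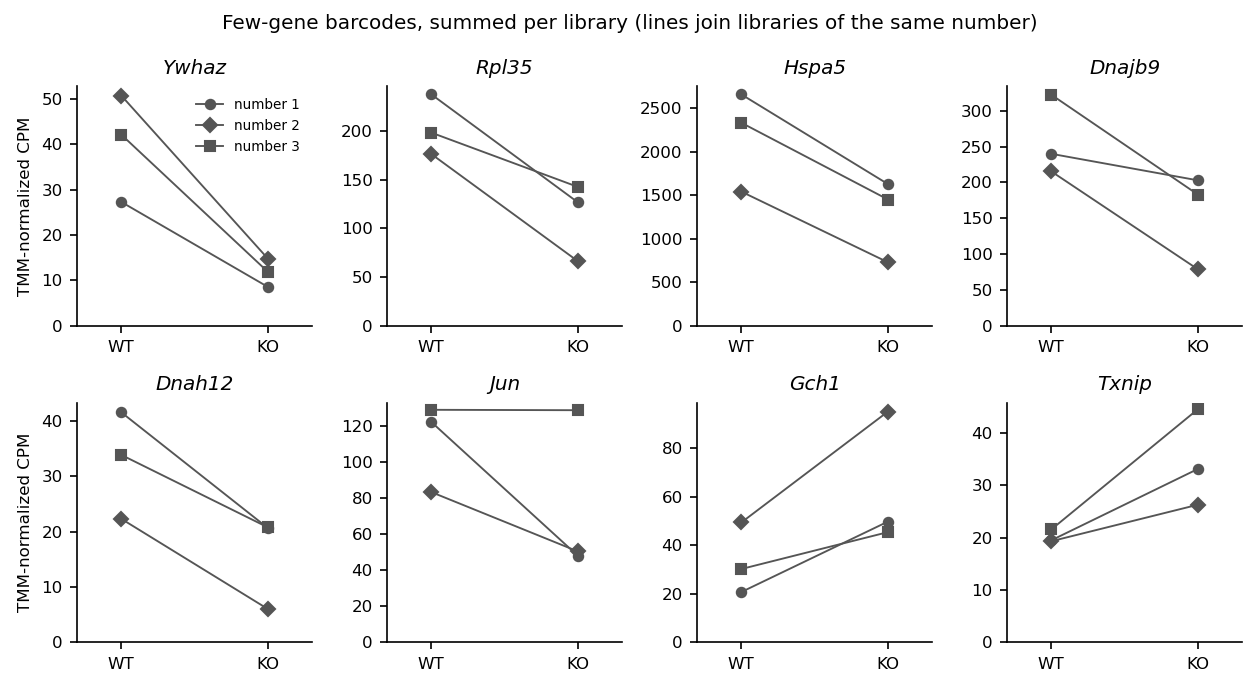
TMM-scaled CPM of 8 genes in few-gene barcodes summed per library, with lines joining WT and KO libraries of the same number. *Ywhaz*, *Rpl35*, *Hspa5*, *Dnajb9* and *Dnah12* are lower in KO in 3 of 3 pairs, *Jun* hardly differs in the third pair, and *Gch1* and *Txnip* are higher in 3 of 3.

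By list, genotype medians were set beside that of all genes, a log2 fold change of KO to WT of 0.01. Of all genes tested, 49.3% were below 0. The 19 granule cargo genes had a median of -0.35 with 19 of 19 below 0, and -0.12 to -0.50 with 1 library left out (18 of 19 below 0 and -0.17 without KO library 2). ER chaperones had -0.19 with 20 of 22 below 0, and 2 of them called lower with the block, where 0.872% of all genes were. The set's marker *Hspa5* is among those called. Leaving out 1 library moved their median from -0.35 to -0.10, the latter without KO library 2, with 18 of 22 below 0. The 10 immediate early genes had -0.53 with 9 below 0, and -0.34 to -0.64 with 1 library left out (8 below 0 and -0.34 without KO library 2). Of the 81 ribosomal protein genes 78 were below 0 with a median of -0.16, but this turned on single libraries, since leaving out 1 gave 16 to 79 below 0 (61 without KO library 2). The exocytosis list had 0.23 with 3 of 16 below 0, and 0.09 to 0.29 with 1 library left out (5 below 0 and 0.10 without KO library 2). Nuclear oxidative phosphorylation subunits had 0.12 with 29 of 78 below 0, and 0.03 to 0.16 with 1 library left out (26 below 0 and 0.08 without KO library 2). In many-gene barcodes the medians of the same lists were -0.03 for granule cargo, -0.13 for ER chaperones and -0.16 for immediate early genes. They were 0.15 for ribosomal proteins, 0.06 for exocytosis and 0.14 for nuclear oxidative phosphorylation subunits, with -0.002 for all genes. The difference between the sets was not tested by list. No list member was called in edgeR's unblocked test of few-gene barcodes.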

How the data were processed

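Per the labels and the file headers, the authors aligned and counted the reads with Cell Ranger 6.0.2, and the submitters' processing notes name the build mm10 and Seurat. They deposited raw UMI counts, whole numbers per gene and per barcode called as a cell, with no normalization. The annotation and the strand setting are not given in the sources used here. Identifiers were matched to GENCODE vM21 (GRCm38) for coordinates, 32235 of 32285.

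Members were found by the rule in each library. Their UMIs were summed per library and turned into CPM over all UMIs or over UMIs other than *Ins1* and *Ins2*, and log2 ratios used a pseudocount of 1 CPM and genes with at least 20 CPM on average in either set. Gene numbers were compared after thinning with a fixed seed. KO and WT were compared with edgeR 4.0.16 quasi-likelihood tests (TMM, after dropping genes found in 15% or fewer of the barcodes in both genotypes, Benjamini-Hochberg adjusted p under 0.05 and log2 fold change over 0.1, the study's thresholds), with the genotype by set term in limma 3.58.1 voom (library as random block), with DESeq2 1.42.0 as alternative, and with exact permutation tests for single values. The unblocked edgeR fit and the genotype by set term were run on simulated counts with known changes. Those counts had less spread between libraries than the data and no replicate effect. The blocked fit was not run on simulated counts. The medians that the rule limits were planned as tests and are given as values only. Software was R 4.3.3 and Python 3.11.15 with pandas 2.3.3, scipy 1.17.1 and numpy 2.4.6.

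Deviations of same-numbered WT and KO libraries from their group means correlated over 729 genes at 0.68, 0.57 and 0.17, so the replicate number was also used as a block. This pairing comes from the data, and the labels do not say what the number marks. Libraries of the same genotype differed beyond sampling noise (chi-square per degree of freedom 4.95 to 31.0), so none was a copy.

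Named genes were the 6 markers given for the set, the 14-3-3 genes, the genes of highest and lowest ratio that were 2-fold in all 6 libraries at 100 CPM or more, the most abundant and most different members of each list, and the genes called or of lowest p between genotypes. Further members of these lists, genes below 100 CPM, *Ucn3*, *Slc2a2* and other granule genes were added after their values were seen. A gene that this rule names is not reported here. The members, the 35 lists and the tests were chosen with earlier results of these data known. Lists are described by counts and medians, with no set test. The authors' own comparisons were not used.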

Additional observations from a re-analysis of the deposited data

How the results depend on the processing

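Depth limits what the genotype comparison can show: few-gene barcodes summed to 953813 UMIs in the smallest library, 3 against 3 libraries cannot give an exact p under 0.1, and the sets join without a gap at 3000 genes. The cause of the changes below was not tested. With 1 library left out, the difference of KO and WT ran from -10103 to 586 for median UMIs, from -0.194 to 0.347 percentage points for the mitochondrial share, from -5.69 to -1.77 for the few-gene share, from -2.03 to -1.55 for *Ywhaz*, from -0.46 to 0.28 for *Cox6a2* and from -0.48 to 0.18 for *Ins2* on the log2 scale. Called genes were 0 to 1, list members called 0 to 1, and genes 2-fold lower in few-gene barcodes 1382 (of 5033) to 2977 (of 5134).

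With at most 2500 genes, members were 309, the genotype difference in mitochondrial share -0.227, and of 5063 genes 4 were higher and 2367 lower. With 3500 genes, the difference in detected genes was 237, and of 5111 genes 1 was higher and 46 lower. *Ywhaz* was then at -2.04 (edgeR adjusted p 0.00978), and 1 gene was called, also 1 list member. At least 15000 UMIs gave 2540 lower genes of 5056. At least 40% insulin gave 753 of 4464, and a mitochondrial difference of -0.0050. At most 5% mitochondrial UMIs gave *Ywhaz* at -1.94 (edgeR adjusted p 0.0210), 1 called gene and 1 list member. CPM without insulin gave 36 higher and 87 lower genes of 7235, thinning 890 lower of 5198, and a 5 CPM minimum 17 higher and 2278 lower of 9496. The main setting had 5064 genes. Without KO barcodes holding a *Ywhaz* UMI, a choice by the targeted gene that puts it at 0 in KO, 1 gene, 1 list member and 1 genotype by set term were called, each of them *Ywhaz* itself, and nothing is read from these. DESeq2 called 2 of 5163 genes and 1 list member (*Ywhaz* -1.79, adjusted p 0.00609), and no filter called 29 of 17702 genes and 5 list members (*Ywhaz* -1.83, edgeR adjusted p 2.72e-07). *Cox6a2* turned to -0.18 with 3500 genes, -0.0040 with DESeq2 size factors, -0.041 with the block, -0.011 with DESeq2 and -0.041 with no filter.

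With the replicate block, 65 genes and 19 list members were called, with *Ywhaz* at -1.75 (edgeR adjusted p 7.95e-07). The genotype by set term was called for 0 genes with it. Over 3 pairs the exact p of the few-gene share and the 4 medians cannot go below 0.25, so no call could be gained there. The other limits for the member count, leaving out a library on the scale without insulin, and leaving out a pair under the block were chosen after seeing the data.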
